A study of Mus musculus with 10 samples.

Results

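The comparison set Achilles tendon of conditional Mkx knockout mice (Mkx-CreER/flox, 3 libraries) against tendon of mice with the CreER allele and no floxed allele (Mkx-CreER/+, 3 libraries). These 6 of the 10 libraries of the series were chosen by genotype, and all genes of the count table entered. Every mouse received tamoxifen at 20 mg/kg at 6 weeks of age, and tendon was taken 4 weeks later. The Mkx-CreER allele and the tamoxifen were thus shared by both groups, called knockouts and CreER controls here. Libraries were made by RamDA-seq, a random-primed method for small amounts of total RNA. The other 4 libraries (Mkx flox/+, also given tamoxifen) were not compared and entered only the filter, the scaling and the estimate of the spread. The sources used here do not say whether the CreER allele itself disrupts Mkx or which exons are floxed. Library numbers are those of the count table: 1, 2 and 4 for the CreER controls and 1, 4 and 5 for the knockouts, and values are given in that order. The labels do not say that each library is a separate mouse, so the p-values measure only the spread between these samples, which may be technical.

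Mkx encodes Mohawk, a homeodomain transcription factor of the TALE class that is expressed in tendon and ligament. Tendon fibroblasts lay down fibrils of type I collagen, and small leucine-rich proteoglycans such as fibromodulin and keratocan bind these fibrils as they assemble. A dissected Achilles tendon also holds macrophages, vessels, nerve, fat, its loose sheath (the paratenon) and, near the muscle, muscle fibres.

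The 6 libraries held 12704595 to 22656417 counts. The tendon markers Scx, Tnmd, Mkx, Thbs4, Fmod and Comp were present in all 6, with summed levels of 16900 to 22800 CPM (counts scaled to library size with TMM factors) in the CreER controls and 10800 to 17100 CPM in the knockouts. The skin keratins Krt5 and Krt14 were at 0 in all 6. Sarcomere genes took 3.79%, 8.70% and 7.41% of the counts in the CreER controls and 14.3%, 10.2% and 8.79% in the knockouts. Knockout 1 stood apart on the first principal component of the 6 libraries (38.5% of the variance), at 88.4 against -27.6 to -5.76 for the others. CreER control 4 correlated more closely with knockouts 4 and 5 (Pearson r = 0.969 and 0.962 across genes, which are not independent replicates) than with CreER controls 1 and 2 (0.960 and 0.959). For many results that rest on these libraries, though not for all, values without them are also given.

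Mkx fell in the knockouts and was the only gene to pass the test. It measured 91.4, 93.8 and 93.5 CPM in the CreER controls and 26.1, 32.4 and 30.5 CPM in the knockouts. The 3 libraries of each group lay close together, and the groups did not overlap. Mkx (ENSMUSG00000061013, mm10 chromosome 18, 6934518 to 7004780, minus strand) had a log2 difference of -1.65 (SE 0.191, edgeR adjusted p = 0.00637). The knockout mean was 31.9% of the CreER control mean. A two-sided exact permutation test over the 20 arrangements of the 6 libraries gave p = 0.1, the smallest that 3 against 3 allow. The call ended without knockout 4 (log2 difference -1.72, edgeR adjusted p = 0.0549) and in a fit of the 6 libraries alone (-1.66, edgeR adjusted p = 0.0575). It ended also with the sarcomere score as a covariate (-1.53, edgeR adjusted p = 0.0780) and with the library number as a block (-1.65, edgeR adjusted p = 0.135). Counts are summed over the whole gene, so reads from exons outside the deleted part would still be counted. In bulk tissue, fewer cells of a type and less RNA per cell cannot be told apart, here and in every result that follows. Of 40 tested genes within 5 Mb of Mkx, 6 had an unadjusted p under 0.05, a threshold that 10.7% of all tested genes passed, and the 40 log2 differences ranged from -0.91 to 0.94.

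Of 16017 genes tested, edgeR called 1 at an adjusted p under 0.05 (0.00624%). At an unadjusted p under 0.05 there were 1720 genes, 923 higher in the knockouts (5.76%) and 797 lower (4.98%). All 3 knockouts lay above all 3 CreER controls for 1065 genes (6.65%) and below them for 984 (6.14%). DESeq2 gave 12289 genes an adjusted p and called 45 higher (0.366%) and 81 lower (0.659%). The edgeR count depended on single libraries, with 117 genes called without CreER control 4 (20 higher and 97 lower) and 0 without knockout 4 (1629 at an unadjusted p under 0.05). Genes other than Mkx are therefore given as measured differences that did not pass the edgeR test, and counts of list members use the unadjusted p. They stand beside 5.76% of all genes higher and 4.98% lower. The lists and their members were chosen with earlier results of these data known, so these counts describe the members and are not independent tests. Leaving out a library moved the all-gene counts too. Genes higher and lower numbered 503 and 516 without CreER control 1, and 513 and 424 without CreER control 2. They numbered 1092 and 1245 without CreER control 4, and 602 and 886 without knockout 1. The numbers were 894 and 735 without knockout 4, and 1272 and 1029 without knockout 5. The median log2 difference over all tested genes was 0.03.

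**Figure D1:**
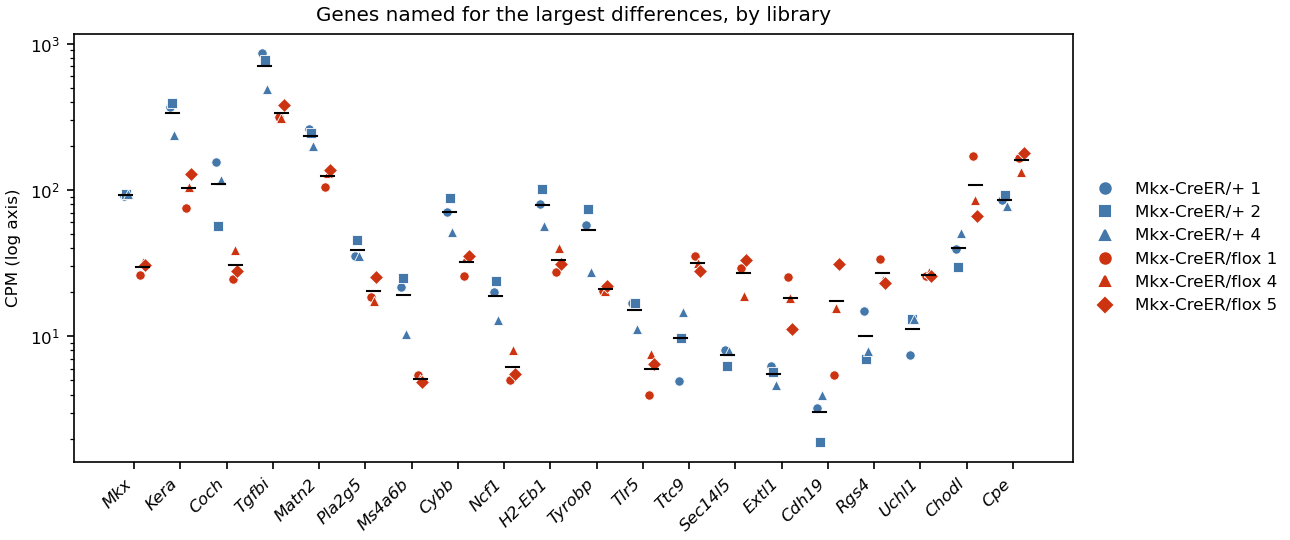
CPM on a log axis for Mkx and other genes named for small p-values in either direction, with 1 point per library (blue, Mkx-CreER/+; red, Mkx-CreER/flox; shape, library number) and a bar at each group mean. Mkx lies at 26.1 to 32.4 CPM in the knockouts against 91.4 to 93.8 CPM in the CreER controls, and CreER control 4 is the control nearest to the knockouts for Ms4a6b, Cybb, Ncf1, H2-Eb1 and Tyrobp.

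Genes with the smallest p-values among those higher in the knockouts included Ttc9, Sec14l5, Rgs4, Cpe and Ank3. Ttc9, a tetratricopeptide repeat protein, measured 4.96, 9.67 and 14.8 CPM in the CreER controls and 35.4, 31.5 and 28.1 CPM in the knockouts, a log2 difference of 1.68 (SE 0.314, edgeR adjusted p = 0.237). Sec14l5, of the SEC14 lipid-binding family, measured 8.06, 6.25 and 7.99 CPM against 29.3, 18.8 and 33.2 CPM (1.86, SE 0.362, edgeR adjusted p = 0.237). Rgs4, an inhibitor of G protein signalling, measured 14.9, 7.04 and 7.95 CPM against 33.8, 24.3 and 23 CPM (1.45, SE 0.293, edgeR adjusted p = 0.237). In all 3 the groups did not overlap, and DESeq2 called each (adjusted p of 0.00067, 0.000977 and 0.00432). Cpe (carboxypeptidase E, which trims peptide hormones) measured 84.9, 92.8 and 77.3 CPM against 166, 133 and 180.2 CPM, a log2 difference of 0.91 (SE 0.184). Ank3 (ankyrin G, which anchors membrane proteins) measured 54.7, 74.5 and 69.5 CPM against 114, 119 and 143 CPM (0.92, SE 0.176), and Adam23, a membrane protein of cell adhesion, 11.5, 16.4 and 20 CPM against 31.6, 29.3 and 35.6 CPM (1.01, SE 0.226). These groups too were separate. Extl1, a glycosyltransferase of the exostosin family, measured 6.29, 5.73 and 4.62 CPM against 25.6, 18.2 and 11.2 CPM (1.73, SE 0.399), with the highest level in knockout 1. Without that library its log2 difference was 1.39. Klhl30 measured 15.1, 20.55 and 23.2 CPM against 49.5, 37.9 and 36.4 CPM (1.07, SE 0.238). Rbm20 measured 7.25, 14 and 11.8 CPM against 44.4, 22.6 and 26.4 CPM (1.49, SE 0.341). With the sarcomere score as a covariate the log2 difference was 0.85 for Rbm20, 0.92 for Klhl30 and 1.15 for Extl1. For Sec14l5 it was 1.49, for Rgs4 1.40 and for Ank3 0.87. The part of muscle content in these values was not tested.

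Promoter sequence is shown for Coch and Fmod, matrix genes with lower values in the knockouts, and for Sec14l5, one of the higher genes. These were chosen because their RefSeq start is also the annotated gene start. Each is the 250 bases before the RefSeq start (GRCm38.p6, plus strand), at chr12:51593091-51593340 for Coch, chr1:134037004-134037253 for Fmod and chr16:5146859-5147108 for Sec14l5. Capitals mark TGACAG, a core bound by TALE homeodomain proteins, read here on the other strand.
Coch: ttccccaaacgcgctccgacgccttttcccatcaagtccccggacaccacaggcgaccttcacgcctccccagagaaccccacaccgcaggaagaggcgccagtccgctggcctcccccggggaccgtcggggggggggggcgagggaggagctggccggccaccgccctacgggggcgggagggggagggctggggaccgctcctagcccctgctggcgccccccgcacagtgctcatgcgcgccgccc
Fmod: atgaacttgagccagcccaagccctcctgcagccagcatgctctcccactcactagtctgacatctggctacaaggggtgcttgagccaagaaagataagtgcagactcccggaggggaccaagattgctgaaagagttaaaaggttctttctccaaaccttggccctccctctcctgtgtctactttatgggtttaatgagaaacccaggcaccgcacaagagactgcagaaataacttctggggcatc
Sec14l5: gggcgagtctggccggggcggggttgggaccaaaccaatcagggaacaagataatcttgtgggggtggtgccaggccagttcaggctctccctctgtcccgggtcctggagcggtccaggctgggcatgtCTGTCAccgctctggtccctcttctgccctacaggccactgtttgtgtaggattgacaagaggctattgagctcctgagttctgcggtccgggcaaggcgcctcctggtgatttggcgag
The palindrome ACANNTGT and the core TGACAG were searched on both strands. ACANNTGT was in 6.31% and TGACAG in 15.9% of all 32851 RefSeq promoters of this length. Neither was in the Coch or Fmod window, and Sec14l5 held 1 TGACAG, 120 bases before the start. Of the 12 higher genes chosen by smallest p, 7 matched RefSeq, and 3 of their 7 promoters held TGACAG. Of the 11 lower genes without Mkx, 9 matched, and 1 of their 10 promoters held it. ACANNTGT was in 0 promoters of either set.

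Matrix genes that were low in the knockouts were led by Kera (keratocan), a small leucine-rich proteoglycan that binds collagen fibrils. Kera measured 371, 393 and 239 CPM in the CreER controls and 75.5, 105 and 129 CPM in the knockouts, a log2 difference of -1.70 (SE 0.287, edgeR adjusted p = 0.178). Fmod (fibromodulin), its relative that regulates fibril assembly, measured 5070, 6601 and 4173 CPM against 2853, 1735 and 3271 CPM (-1.01, SE 0.297, edgeR adjusted p = 0.329). All 3 knockouts lay below all 3 CreER controls in both genes, and DESeq2 called both (adjusted p of 1.95e-05 and 0.02). Kera passed the edgeR test without CreER control 4, its lowest control (edgeR adjusted p = 0.0261), and with no filter on low counts (edgeR adjusted p = 0.0029). Of 21 small leucine-rich and large proteoglycans tested (27 listed), Kera and Fmod were lower at an unadjusted p under 0.05 and Aspn higher, with a median log2 difference of -0.30 against 0.03 for all genes. Aspn (asporin), named after its value was seen, measured 189, 142 and 171 CPM against 469.6, 223 and 203 CPM (0.84, SE 0.282), and without knockout 1 its log2 difference was 0.33. The lower members numbered 5 without CreER control 4, knockout 1 or knockout 5, and 4 without knockout 4.

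Among 35 elastic fibre and matricellular proteins tested, 8 were lower and 3 higher at an unadjusted p under 0.05, with a median of -0.40. Coch (cochlin), a secreted matrix protein best known from the inner ear, measured 156, 56.8 and 118 CPM in the CreER controls and 24.8, 38.8 and 27.8 CPM in the knockouts (-1.85, SE 0.339, edgeR adjusted p = 0.237). Tgfbi, a matrix protein induced by TGF-beta, measured 861, 776 and 489 CPM against 316, 310.5 and 383 CPM (-1.07, SE 0.234, edgeR adjusted p = 0.323). Matn2 (matrilin 2), an adaptor between matrix filaments, measured 261, 244 and 200.2 CPM against 105, 131 and 138 CPM (-0.92, SE 0.2, edgeR adjusted p = 0.323). None of these 3 overlapped between the groups. Coch passed the edgeR test when CreER control 2 was left out (edgeR adjusted p = 0.0245). Tgfbi and Matn2 passed it when CreER control 4 was left out (edgeR adjusted p = 0.0310 and 0.0452). In each case the library left out was the control with the lowest level of that gene. Tnc (tenascin C), an adhesion-modulating glycoprotein, measured 364, 504 and 288 CPM against 190.3, 246 and 255 CPM (-0.74, SE 0.281), and the elastic fibre protein Efemp1 106, 72.1 and 62.2 CPM against 33, 55.1 and 46 CPM (-0.84, SE 0.254). Postn (periostin), a matricellular protein that binds collagen, was higher at 154, 97 and 181 CPM against 334, 366 and 226 CPM (1.10, SE 0.396). Tnc, Efemp1 and Postn were named after their values were seen. The lower members of the list numbered 14 without CreER control 4 and 5 without CreER control 2.

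The chains of type I collagen, the main fibril protein, were lower in every knockout without passing the test. Col1a1 measured 8689, 6706 and 7633 CPM in the CreER controls and 3058, 4299 and 4903 CPM in the knockouts (-0.91, SE 0.386, edgeR adjusted p = 0.419). Col1a2, named after its value was seen, measured 22590, 15140 and 15160 CPM against 12070, 8644 and 9148 CPM (-0.82, SE 0.363). The groups did not overlap in either gene, but the 11 fibrillar collagens as a list had a median of 0.05, with 3 lower and 1 higher at an unadjusted p under 0.05 (0 in either direction without knockout 4, and 1 lower without knockout 1 or CreER control 1). Col11a2, a chain of thin fibrils, measured 18.5, 43.1 and 22.1 CPM against 6.51, 16.1 and 20.7 CPM (-0.94, SE 0.398), and its groups overlapped. Of 28 other collagens tested, 1 was higher and 1 lower (4 higher without knockout 1 or CreER control 1, 2 higher without CreER control 4 and 2 lower without knockout 5). Col8a1, a short-chain collagen of vessel walls, measured 31.1, 30.9 and 44 CPM against 65.9, 63.3 and 65.7 CPM (0.88, SE 0.259), and Col16a1, a fibril-associated collagen, 31.6, 33.3 and 33.3 CPM against 15.7, 15.8 and 28.5 CPM (-0.71, SE 0.241).

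Of 34 genes that fold, process or cross-link collagen, 7 were lower and 2 higher at an unadjusted p under 0.05, with a median of -0.20. Crtap, part of the collagen prolyl 3-hydroxylase complex, measured 135, 125 and 95.7 CPM in the CreER controls and 74.9, 67.3 and 90.7 CPM in the knockouts (-0.61, SE 0.205). Pcolce, which enhances removal of the procollagen C-propeptide, measured 616, 672 and 379.5 CPM against 223, 314 and 372 CPM (-0.88, SE 0.3). Adamts2, the protease that removes the N-propeptide, was named after its value was seen and measured 624, 451 and 377 CPM against 267, 302 and 343 CPM (-0.67, SE 0.242). The groups did not overlap in these 3 genes, although CreER control 4 and knockout 5 were close in each. The number of lower members was 3 without CreER control 2, 4 without CreER control 1 or knockout 4, and 12 without knockout 5. Of 32 matrix-degrading enzymes and inhibitors, 9 were lower and 2 higher, with a median of -0.21, and 5 were lower without CreER control 1. Mmp23, a membrane-bound metalloproteinase, measured 45.8, 45.2 and 23 CPM against 14.1, 19.4 and 21.4 CPM (-1.05, SE 0.281), without overlap. Ctss (cathepsin S, a protease of antigen-presenting cells) measured 120.4, 113 and 59.2 CPM against 64.9, 40.6 and 38.5 CPM (-1.02, SE 0.263). The groups overlapped for Ctss.

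The tendon markers were divided. Of 24 tendon transcription factors and markers, 5 were lower (Mkx, Kera, Wif1, Fmod and Angptl7) and 2 higher, Chodl among them, at an unadjusted p under 0.05, with a median of -0.24 (4 higher without CreER control 1 and 1 without knockout 1). Wif1, a secreted Wnt inhibitor, measured 180.4, 218 and 133 CPM in the CreER controls and 112, 86.8 and 84.2 CPM in the knockouts (-0.91, SE 0.24, edgeR adjusted p = 0.328). Angptl7, a secreted angiopoietin-like protein, measured 13020, 17240 and 11790 CPM against 7662, 6503 and 8697 CPM (-0.88, SE 0.281). Chodl (chondrolectin), a membrane lectin, was higher at 39.5, 30 and 50.7 CPM against 172, 84.8 and 66.3 CPM (1.42, SE 0.33), and knockout 1 held the highest level. Without that library its log2 difference was 0.90. Groups overlapped for the lineage factor Scx at 13.5, 14.3 and 14.9 CPM against 20.4, 14.2 and 18.5 CPM (0.31, SE 0.347) and for Tnmd (tenomodulin, of mature tendon cells) at 345, 313 and 239.7 CPM against 409, 152 and 142 CPM (-0.35, SE 0.359). They overlapped also for the matrix proteins Thbs4 (-0.41, SE 0.282) and Comp (-0.12, SE 0.379), and the difference of Comp turned positive when CreER control 4 or knockout 1 was left out. Angptl7 was named after its value was seen. Among the 12 TALE homeobox genes tested, Mkx alone had an unadjusted p under 0.05.

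**Figure D2:**
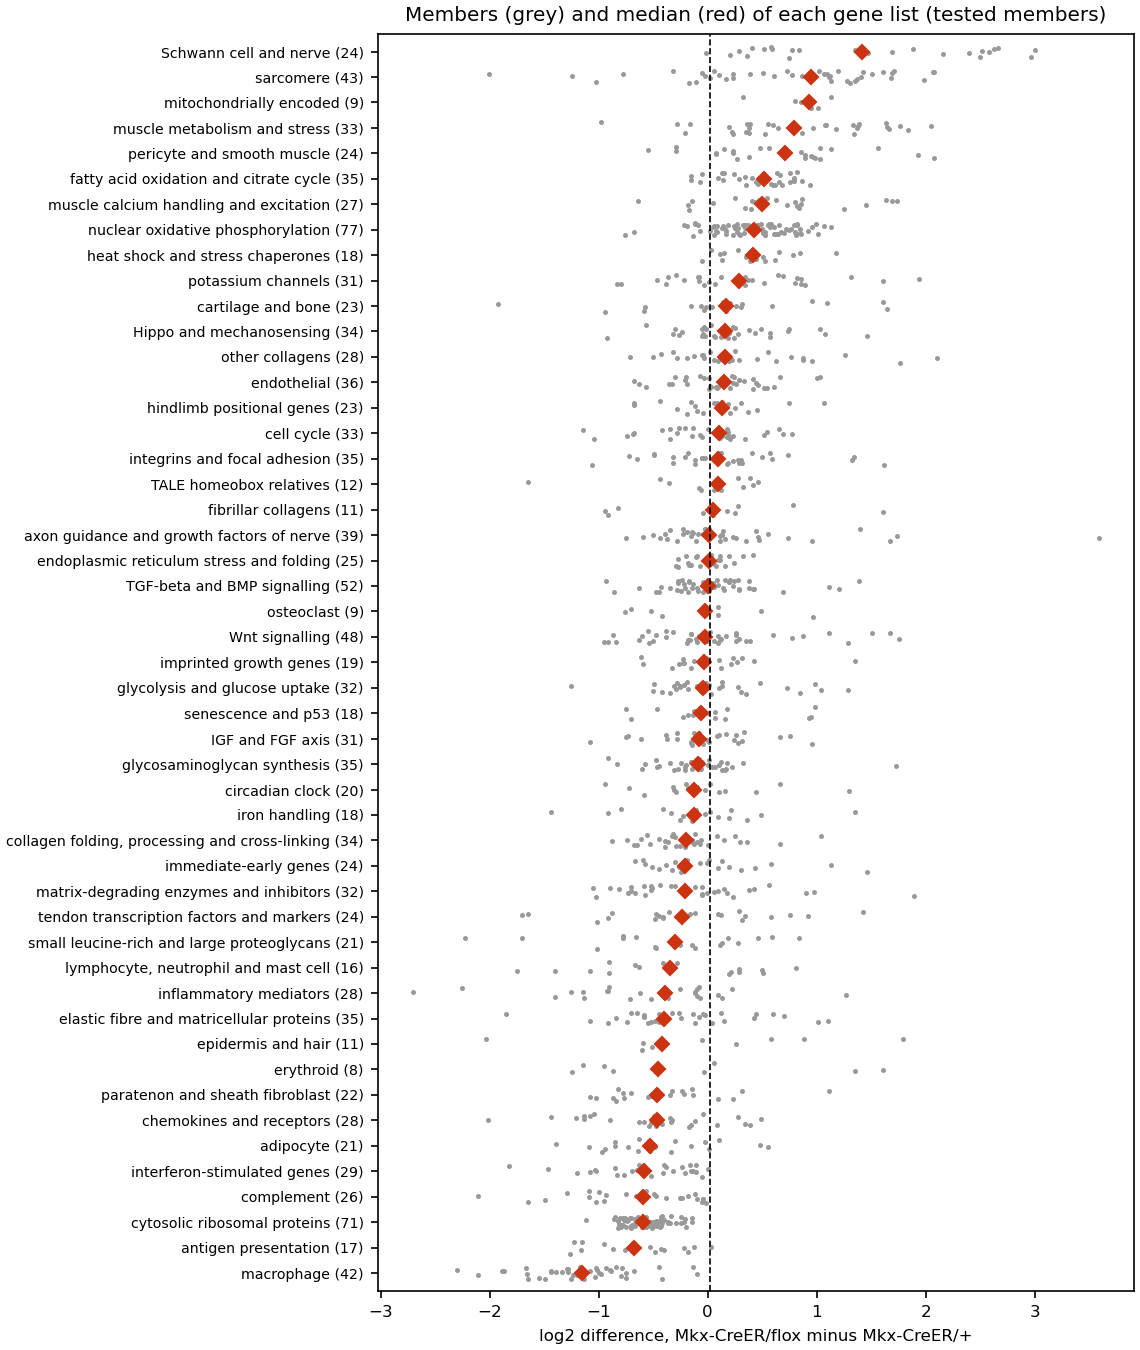
Log2 difference between knockouts and CreER controls for the members of each gene list, with members in grey, the list's median in red, the number tested in brackets and a dashed line at the median of all genes. The macrophage list has the lowest median (-1.15), the Schwann cell list the highest (1.42), and the fibrillar collagens (0.05) lie near the median of all genes (0.03).

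Genes of the macrophage list, chosen like all lists with earlier results of these data known, were low in the knockouts as a group. Of 42 tested (43 listed), 34 were lower and 0 higher at an unadjusted p under 0.05, against 4.98% of all genes lower. The groups did not overlap in 25, all lower, against 6.14% of all genes. DESeq2 called 20 lower and 0 higher, against 0.659% lower among the genes to which it gave an adjusted p. All 42 log2 differences were negative, with a median of -1.15. Lower members numbered 26 without CreER control 2 and 39 without CreER control 4, with medians of -0.92 and -1.44. Of all genes, 424 and 1245 were lower in those fits, against 797 in the main fit. The summed level of the 8 macrophage markers was 985, 1210 and 557 CPM in the CreER controls and 339, 404 and 460 CPM in the knockouts, and none was at 0. CreER control 4 was the control nearest to the knockouts.

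Ms4a6b, a membrane protein of macrophages, measured 21.8, 25.1 and 10.4 CPM in the CreER controls and 5.43, 5.11 and 4.88 CPM in the knockouts (-1.89, SE 0.322, edgeR adjusted p = 0.178). Lyz2 (lysozyme), named after its value was seen, measured 972, 1355 and 482 CPM against 359, 375 and 340.5 CPM (-1.39, SE 0.318). The receptor of the macrophage growth factor CSF1, Csf1r, measured 253, 322 and 159 CPM against 66, 103 and 139 CPM (-1.25, SE 0.291), and shares 15.1% of its exon bases with Hmgxb3 on the opposite strand. Adgre1 (F4/80) measured 89.7, 112 and 54.2 CPM against 43.6, 36.5 and 41 CPM (-1.08, SE 0.27), and the mannose receptor Mrc1 254, 269.5 and 162 CPM against 126, 129 and 116 CPM (-0.89, SE 0.232). In each of these 5 genes all knockouts lay below all CreER controls. Subunits of the phagocyte NADPH oxidase were low too, with Cybb at 70.9, 88.3 and 51.5 CPM against 25.9, 34.9 and 35.2 CPM (-1.13, SE 0.229) and Ncf1 at 20, 23.9 and 12.8 CPM against 5.07, 8 and 5.54 CPM (-1.59, SE 0.326), which shares 11.1% of its exon bases with Gtf2ird2 on the opposite strand. Tyrobp, the adaptor of activating receptors on myeloid cells, measured 57.9, 73.6 and 27.5 CPM against 20.3, 20.4 and 22.1 CPM (-1.34, SE 0.291).

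Antigen presentation and complement genes were also low in the knockouts. Of 17 antigen presentation genes, 9 were lower and 0 higher at an unadjusted p under 0.05, against 4.98% of all genes lower, with a median of -0.68. Without knockout 1 the lower members numbered 9 and the median was -0.67. The class II chain H2-Eb1 measured 79.8, 101 and 56.6 CPM in the CreER controls and 27.4, 40.2 and 31.4 CPM in the knockouts (-1.26, SE 0.257, edgeR adjusted p = 0.237). H2-Ab1, its class II relative, measured 92.7, 134 and 66.3 CPM against 43.8, 51.7 and 35.6 CPM (-1.16, SE 0.258). The class I chain H2-D1, which most cells make, was named after its value was seen and measured 589, 592 and 419.5 CPM against 232, 345 and 301 CPM (-0.87, SE 0.216). All 3 were separate between the groups. Of 26 complement genes, 13 were lower and 0 higher, with a median of -0.59 and all 26 log2 differences negative. Without knockout 1 the lower members numbered 10 and the median was -0.45. Vsig4, a complement receptor of resident macrophages, measured 12.6, 8.41 and 5.38 CPM against 2.17, 1.47 and 2.51 CPM (-2.10, SE 0.493). C3, the central component, was named after its value was seen and measured 1069, 1316 and 753 CPM against 418, 572 and 484 CPM (-1.09, SE 0.27), and C3ar1, a receptor for its fragment, 70.5, 84.4 and 47.7 CPM against 41.6, 28.5 and 34.5 CPM (-0.95, SE 0.234). The part of macrophage content in the values of the other immune lists was not tested.

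Lists of interferon-stimulated genes, chemokines and inflammatory mediators had negative medians too. Of 29 interferon-stimulated genes, 8 were lower and 0 higher at an unadjusted p under 0.05 (14 without CreER control 4, 4 without CreER control 2 and 5 without knockout 5), with a median of -0.58. Of 28 chemokines and receptors, 6 were lower and 0 higher (11 without CreER control 4 and 3 without CreER control 2), with a median of -0.47. Of 28 inflammatory mediators, 6 were lower and 1 higher (10 lower without knockout 5), with a median of -0.39. Pla2g5, a secreted phospholipase, measured 35.2, 45.7 and 35.2 CPM in the CreER controls and 18.4, 17.4 and 25.4 CPM in the knockouts (-0.92, SE 0.194). Tlr5, the flagellin receptor, measured 16.9, 17 and 11.1 CPM against 3.98, 7.56 and 6.43 CPM (-1.31, SE 0.285), and the chemokine receptor Ccr1 5.62, 7.88 and 4.08 CPM against 1.72, 2.85 and 1.85 CPM (-1.43, SE 0.374). Each was lower in every knockout than in any CreER control. Itgb2, the beta chain of leukocyte integrins, measured 29.3, 31.6 and 17.7 CPM against 11.7, 14.9 and 10.9 CPM (-1.06, SE 0.252).

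Paratenon and sheath fibroblast genes gave 6 lower and 0 higher of 22, with a median of -0.46 (11 lower without CreER control 4). The summed level of the 4 paratenon markers was 1040, 913 and 524 CPM in the CreER controls and 432, 508 and 509 CPM in the knockouts. Ly6c1 measured 445, 381 and 246 CPM in the CreER controls and 181, 205 and 203 CPM in the knockouts (-0.86, SE 0.224), and Igfbp6, a binding protein of insulin-like growth factors, 471, 507 and 314 CPM against 134, 177 and 300.5 CPM (-1.08, SE 0.28). Ly6a (Sca-1, a surface protein of fibroblast progenitors) measured 576, 476 and 256 CPM against 204, 225 and 213 CPM (-1.02, SE 0.277). Groups did not overlap in these 3 genes, and CreER control 4 was again closest to the knockouts. They did overlap for the other paratenon markers, Cd34, Pi16 and Dpp4. Cd34 measured 321, 270 and 195 CPM against 164, 208 and 198 CPM. Pi16 measured 112, 105 and 51.6 CPM against 20.7, 54.2 and 76.6 CPM, and Dpp4 33.7, 62.4 and 20.9 CPM against 42.9, 21.3 and 21.2 CPM.

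**Figure D3:**
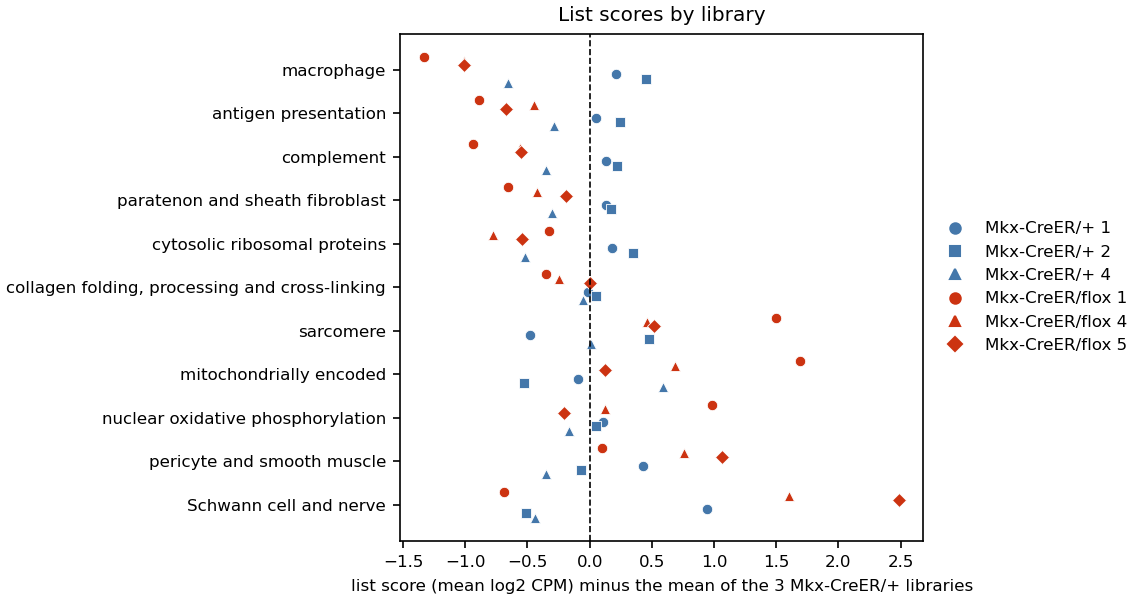
Score of selected gene lists (mean log2 CPM of the members) minus the mean of the 3 CreER controls, with 1 point per library. For macrophage genes the scores are 4.47 to 5.58 in the CreER controls and 3.80 to 4.12 in the knockouts, and for sarcomere genes CreER control 2 (8.77) lies among the knockouts (8.75 to 9.79).

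Genes of cytosolic ribosomal proteins were lower on average in the knockouts than in CreER controls 1 and 2, while CreER control 4 lay within the range of the knockouts. Of 71 tested, 43 were lower and 0 higher at an unadjusted p under 0.05, all 71 log2 differences were negative, and the median was -0.59. Of the 71, 10 lay lower without overlap between the groups, against 6.14% of all genes. Rps12, a small-subunit protein named after its value was seen, measured 983, 1050 and 553 CPM in the CreER controls and 509, 466 and 506 CPM in the knockouts (-0.80, SE 0.237), and Rpl21, of the large subunit, 187, 186 and 119 CPM against 99.5, 80.3 and 98.6 CPM (-0.82, SE 0.219). The mean log2 CPM over the list was 7.97, 8.14 and 7.27 in the CreER controls and 7.46, 7.01 and 7.25 in the knockouts, so the groups overlapped. Lower members numbered 12 without CreER control 2, 21 without knockout 4, 27 without CreER control 1, 59 without CreER control 4 and 63 without knockout 1.

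Short genes as a whole were also lower in the knockouts, by a smaller amount. Among 292 protein-coding genes with under 1 kb of exon the median log2 difference was -0.18, and among 2562 with over 8 kb it was 0.11. For genes of 1 to 2 kb it was -0.13, and for those of 2 to 4 kb -0.05. Per library, the median deviation of the shortest genes was 0.25, 0.29 and -0.22 in the CreER controls and 0.06, -0.11 and -0.29 in the knockouts. CreER control 4 thus lay with the knockouts here. The median exon length was 1770 bases for ribosomal protein genes and 2248 bases for macrophage genes, against 4493 bases for all 14011 protein-coding genes tested. Other lists of short genes went both ways. Nuclear oxidative phosphorylation genes had 1718 bases and a median log2 difference of 0.42, and mitochondrially encoded genes 1038 bases and 0.93. Chemokines and receptors had 2063.5 bases and -0.47. The part of gene length in the value of any of these lists was not tested.

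**Figure D4:**
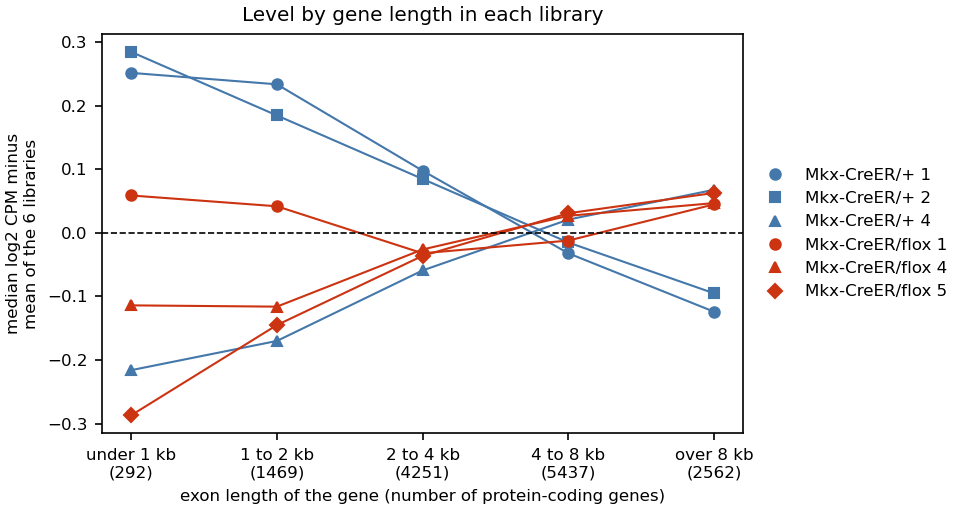
Median log2 CPM of protein-coding genes minus the mean of the 6 libraries (vertical axis) by exon length class (horizontal axis), with 1 line per library. In the class under 1 kb CreER controls 1 and 2 lie at 0.25 and 0.29, and CreER control 4 at -0.22 lies between knockouts 4 and 5.

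Muscle genes were high in the knockouts, most of all in knockout 1. Of 43 sarcomere genes, 16 were higher and 0 lower at an unadjusted p under 0.05 against 5.76% of all genes, with a median of 0.95. Without knockout 1 the count was 4 and the median 0.57, and without CreER control 1 the count was 9. Flnc (filamin C, an actin crosslinker at the Z-disc) measured 152, 189 and 399 CPM in the CreER controls and 541, 782 and 586 CPM in the knockouts (1.37, SE 0.403). Tpm3, a slow-fibre tropomyosin, measured 183, 162 and 279 CPM against 1152, 451 and 299 CPM (1.61, SE 0.479), and without knockout 1 its log2 difference was 0.83. The slow myosin Myh7, whose exons partly overlap a predicted gene on the opposite strand, measured 384, 523 and 1540 CPM against 3361, 2878 and 1636 CPM (1.69, SE 0.812), whereas the fast myosin Myh4 measured 266, 11530 and 12.1 CPM against 1617, 70.6 and 3305 CPM (-1.24, SE 2.34) with no order between the groups. The summed level of the 10 muscle markers was 9600, 31000 and 11400 CPM in the CreER controls and 28700, 16500 and 16600 CPM in the knockouts, with CreER control 2 the highest of all.

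Muscle metabolism and stress genes had 14 higher and 1 lower of 33, with a median of 0.80 (7 higher without knockout 1 and 9 without CreER control 1). Ctnna3, a catenin of muscle junctions, measured 4.88, 8.3 and 3.41 CPM in the CreER controls and 17.6, 13.7 and 25.1 CPM in the knockouts (1.76, SE 0.433). Nmrk2, a muscle kinase of NAD synthesis, measured 3.85, 7.36 and 16.1 CPM against 21.9, 39.7 and 25.8 CPM (1.67, SE 0.417), and shares 14.6% of its exon bases with Atcayos on the opposite strand. The small heat shock protein Hspb7, named after its value was seen, measured 103, 112 and 240.1 CPM against 445, 440.5 and 304 CPM (1.38, SE 0.38). These 3 were separate between the groups and kept a log2 difference above 1 without knockout 1 (1.78, 1.81 and 1.27). Of 18 heat shock genes, 6 were higher and 0 lower, with a median of 0.41 (2 higher without knockout 1 or CreER control 2). Of 27 genes of muscle calcium handling, 5 were higher and 0 lower, with a median of 0.50 (1 without knockout 1 and 2 without CreER control 1).

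Counts of higher mitochondrial genes depended on single libraries of both groups. Of 9 mitochondrially encoded genes, 7 were higher at an unadjusted p under 0.05, with a median of 0.93, but none was without knockout 1 (median 0.32) or without CreER control 2, and 1 was without CreER control 1. mt-Nd2, a subunit of complex I, measured 1522, 1148 and 2954 CPM in the CreER controls and 6602, 3386 and 2305 CPM in the knockouts (1.13, SE 0.396), and its groups overlapped. Of 77 nuclear genes of oxidative phosphorylation, 14 were higher and 2 lower, with a median of 0.42. Higher members numbered 0 without knockout 1 (median -0.08), 2 to 4 without any 1 of the CreER controls, 23 without knockout 4 and 41 without knockout 5. Cox6a1, the non-muscle form of a cytochrome oxidase subunit, was one of the lower members at 229.6, 189 and 106 CPM against 102, 101 and 106 CPM (-0.76, SE 0.25). Of 35 genes of fatty acid oxidation and the citrate cycle, 14 were higher and 0 lower, with a median of 0.51 (2 without knockout 1, CreER control 1 or CreER control 2, 5 without CreER control 4, 9 without knockout 4 and 22 without knockout 5). With the sarcomere score as a covariate the medians were 0.63 for the mitochondrially encoded genes, 0.00 for nuclear oxidative phosphorylation and 0.20 for fatty acid oxidation and the citrate cycle. The part of muscle content in these values was not tested further.

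Schwann cell and nerve genes split the libraries across genotypes. Of 24 tested (33 listed), 5 were higher and 0 lower at an unadjusted p under 0.05, with a median of 1.42. Mbp, a protein of myelin, measured 68.1, 16.1 and 13.5 CPM in the CreER controls and 15.5, 183 and 380.1 CPM in the knockouts (2.58, SE 1.12). CreER control 1 and knockouts 4 and 5 were high, and the other 3 libraries low. Cdh19, a cadherin of Schwann cell precursors, differed from Mbp at 3.25, 1.89 and 4 CPM against 5.43, 15.7 and 31.4 CPM (2.52, SE 0.498, edgeR adjusted p = 0.237), with separate groups and a DESeq2 adjusted p of 0.00067. The count of higher members was 14 without knockout 1 (median 1.80) or CreER control 1 (1.59), 3 without CreER control 2, and 1 without knockout 5 (0.66).

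**Figure D5:**
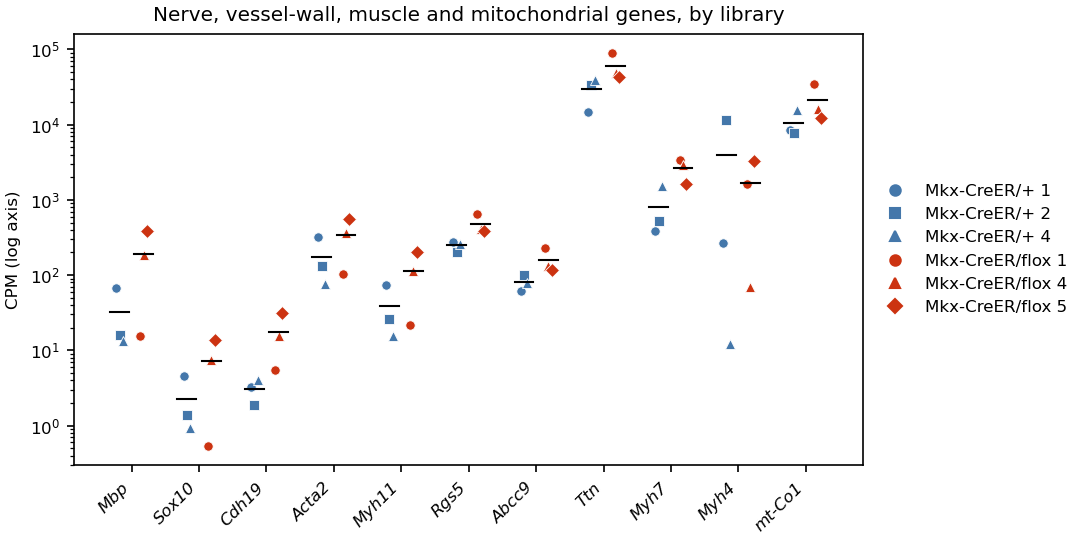
CPM on a log axis for genes of nerve (Mbp to Cdh19), vessel wall (Acta2 to Abcc9), muscle (Ttn, Myh7 and Myh4) and mitochondria (mt-Co1), with 1 point per library and a bar at each group mean. Mbp lies at 68.1 CPM in CreER control 1 and at 183 and 380.1 CPM in knockouts 4 and 5, against 13.5 to 16.1 CPM in the other 3 libraries.

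Mural cells of vessels, meaning pericytes and smooth muscle, gave 6 higher and 0 lower of 24 genes, with a median of 0.71 (11 higher without CreER control 1 and 9 without knockout 1). With the sarcomere score as a covariate, 2 were higher and the median was 0.55. The pericyte regulator Rgs5 measured 279, 202 and 262 CPM in the CreER controls and 654, 407 and 390.4 CPM in the knockouts (0.96, SE 0.247). Abcc9, the channel subunit that marks pericytes, measured 62.4, 99.9 and 79.4 CPM against 229, 133 and 116 CPM (0.98, SE 0.297). Knockout 1 was the highest library for both, and without it the log2 differences were 0.67 and 0.61. Among the other mural markers, Kcnj8 was also highest in knockout 1 (43.9 CPM), but Pdgfrb and Notch3 were lowest there. Pdgfrb measured 148, 165 and 144 CPM against 127, 147 and 208 CPM. Notch3 measured 45.9, 35.5 and 45.7 CPM against 26.7, 71.3 and 78.8 CPM. Smooth muscle actin Acta2 measured 321, 134 and 75.3 CPM against 105, 359 and 555 CPM (0.95, SE 0.597), and smooth muscle myosin Myh11 74.6, 25.9 and 15.3 CPM against 21.9, 115 and 204 CPM (1.57, SE 0.815). These were high in the libraries with high Mbp (CreER control 1 and knockouts 4 and 5). Of 36 endothelial genes, 4 were higher and 1 lower, with a median of 0.15 (1 higher without knockout 1, 2 without CreER control 1 or 2, and 6 higher and 3 lower without knockout 5).

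Adipocyte genes gave 6 lower and 0 higher of 21, with a median of -0.53, but 0 were lower without knockout 5, 1 without CreER control 1, 2 without knockout 1 and 13 without knockout 4. Adipoq (adiponectin) measured 696, 542 and 365 CPM in the CreER controls and 308, 393 and 191 CPM in the knockouts (-0.85, SE 0.305), and the groups overlapped. Signalling lists were mixed, and their counts stand beside 5.76% of all genes higher and 4.98% lower. Of 52 TGF-beta and BMP genes, 1 was higher and 2 lower, with a median of 0.01 (8 lower without knockout 5). Id4, an inhibitor of helix-loop-helix factors, measured 4.22, 2.05 and 4 CPM against 7.15, 9.23 and 10.5 CPM (1.39, SE 0.354), and the BMP antagonist Chrd 58.5, 66.7 and 62.9 CPM against 34.6, 42.8 and 44.6 CPM (-0.62, SE 0.18). Of 48 Wnt genes, 2 were higher and 2 lower (5 higher without knockout 1, and 5 higher and 6 lower without CreER control 4). Of 31 IGF and FGF genes, 1 was higher and 4 lower (2 lower without CreER control 1). Of 34 Hippo and mechanosensing genes, 6 were higher and 1 lower (2 higher without knockout 1). Of 35 integrin and focal adhesion genes, 5 were higher and 3 lower (3 higher without CreER control 2, and 3 higher and 5 lower without knockout 5). No gene of the circadian clock (20 tested) or of endoplasmic reticulum stress (25 tested) had an unadjusted p under 0.05, and of 33 cell cycle genes 0 were higher and 2 lower.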

How the data were processed

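RNA of Achilles tendon was measured by RamDA-seq in 10 libraries, 6 of which were compared. Values are whole-number counts per gene as deposited by the authors. The tools fastp and STAR and the build mm10 were named per the submitters' processing notes, and the counting tool, strand setting, annotation release and versions were not given in the sources used here. Of 32285 identifiers, 32158 matched a symbol. All 10 libraries were fitted with edgeR 4.0.16 in R 4.3.3 (filterByExpr, TMM, quasi-likelihood, 1 group per genotype), the Mkx-CreER/flox minus Mkx-CreER/+ contrast was tested, and p-values were adjusted by Benjamini-Hochberg over 16017 genes at a threshold of 0.05. The procedure was tested on simulated data. Alternatives were DESeq2 1.42.0, limma 3.58.1 voom with sample quality weights, other scalings and filters, and the 6 libraries alone. Others were removal of muscle, mitochondrial and erythroid genes, a sarcomere covariate, a replicate block and leaving out each library. CPM use TMM-scaled totals, and 3 counts equal 0.126 to 0.271 CPM. Named genes were Mkx, the 12 rises and 12 falls with the largest change among called genes without overlap and with a mean log2 CPM of 1 or more, filled by smallest p, and from each list up to 4 called members or else the 2 of smallest p. Predicted gene models and sex-linked checks were not named, and other genes are marked as named after their values were seen or are fixed cell type markers. Members and lists were chosen with earlier results of these data known. Promoters came from RefSeq (GRCm38.p6).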

Additional observations from a re-analysis of the deposited data

How the results depend on the processing

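The number of genes called was 1, against 126 with DESeq2 and 9 with no filter on low counts. With limma voom and sample quality weights it was 715. It was 0 in the fit of the 6 libraries alone (1479 at an unadjusted p under 0.05) or with the sarcomere covariate (880). Leaving out 1 library at a time gave 0 to 117 genes: 0 without knockout 4, 2 without CreER control 2, 6 without knockout 1, 117 without CreER control 4, and 1 without CreER control 1 or knockout 5. Other scalings, a stricter filter and removal of muscle, mitochondrial and erythroid genes gave 1. The cause of these shifts was not tested.

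The log2 difference of Mkx was -1.72 to -1.58 when a library was left out. Its edgeR adjusted p rose above 0.05, so that Mkx was not called, without knockout 4 (-1.715). The same held with the 6 libraries alone (-1.662) and with the sarcomere covariate (-1.528). Only the numbers 1 and 4 occur in both groups. Same-numbered libraries had correlations of -0.034 and 0.01 between their deviations from the group means, so the numbers were not taken to pair the samples. With the replicate block 0 genes were called (1668 at an unadjusted p under 0.05), and Mkx had a log2 difference of -1.653 (edgeR adjusted p = 0.135). The median of the Schwann cell list was 0.31 with the block against 1.42 without it, and that of the pericyte and smooth muscle list 0.53 against 0.71.

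With upper-quartile scaling, 765 genes were higher and 954 lower at an unadjusted p under 0.05, against 923 and 797 with TMM. Differences that changed sign were those of Comp (0.309 with the sarcomere covariate, 0.040 without CreER control 4 and 0.166 without knockout 1, with a range of -0.644 to 0.166 when a library was left out) and Myh4 (3.58 without CreER control 2, in a range of -2.234 to 3.58, and 1.63 with the replicate block). Neither passed the test in any fit. With 3 libraries a group, depth was not the only limit, and for genes near the level of 3 counts a difference was not detectable.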
